A study of Arabidopsis thaliana with 10 samples.

Results

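The interval from 3.5 to 8 hours after pollination (HAP) was examined in whole pistils of Arabidopsis thaliana, ecotype Columbia. The 2 arrays of pistils at 8 HAP were set against the 2 arrays of pistils at 3.5 HAP, which are 4 of the 10 arrays of the series, over all 22745 non-control probe sets with values. The other 6 arrays held pistils at 0.5 HAP, unpollinated pistils, and unfertilised ovules taken out of unpollinated pistils, with 2 arrays each. Every flower had lost its anthers 24 hours before pollination, the labels name no mutation or transgene in any group, and each pistil replicate pooled 20 pistils from at least 10 plants. Pollinated pistils were collected with the pollen tubes growing in them, so RNA of pollen and of pistil tissue cannot be told apart, and in such bulk samples fewer cells of a type and less RNA per cell cannot be told apart either.

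In Arabidopsis a pollen grain germinates on the papillae of the stigma, and its tube passes through the style and along the transmitting tract before it turns into an ovule. The wall of the tube is softened and rebuilt as it grows, receptor kinases keep the tip intact until the tube is received, and small proteins secreted by the egg cell act when the sperm cells are released. The tubes of this species reach ovules within hours of pollination, and the pistil then begins the change from flower organ to fruit.

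Between 3.5 and 8 HAP the 6 counted genes of anthocyanin and flavonoid synthesis rose, and the 5 counted genes known from cold and drought fell. Their lists have 34 and 38 entries by locus, so most of their genes were not counted. The gene with the largest rise was AT4G14090, an anthocyanin 5-glucosyltransferase, with intensities of 171.1 and 179.6 at 3.5 HAP and 1765 and 1495 at 8 HAP (log2 difference 3.10, SE 0.099, limma adjusted p = 7.62e-08). Among the named genes that ended above background the largest fall was that of COR15A, a chloroplast protein made in cold and drought, which went from 1723 and 2011 to 236.1 and 177.7 (log2 difference -3.09, SE 0.124, adjusted p = 1.88e-07). AT2G33850 went from 738.5 and 546.8 to 46.74 and 47.6 (adjusted p = 7.89e-08), which is under 136.5, the level that control probe sets for bacterial RNA set as background here. Such values have no exact size, so its fall is given as at least 4.27-fold, with the dim arrays set at that level, and other genes with the mean of a single time there are given alike. The arrays of both times lay far apart in all 3 genes.

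Intensities are the values deposited by the authors, in arbitrary units, and differences were tested with limma on log2(value + 16) in a fit of all 5 groups with Benjamini-Hochberg adjustment over all probe sets. Fold changes are on that scale, which understates the change of dim genes. A probe set counts as risen or fallen when its adjusted p was under 0.05. By this rule 4310 probe sets rose (18.9% of those tested) and 2824 fell (12.4%), 7134 in all (31.4%). A rise of at least 2-fold was found for 206 probe sets (0.906%) and a fall of at least 2-fold for 177 (0.778%), and 98 and 96 of these name a single gene. All probe sets together had a median log2 difference of 0.051. It became 0.176 when arrays were centred on 3 reference genes and -0.003 after quantile normalization, and the share of rises among changed probe sets was 60.4% as deposited, 83.4% and 50.5% in that order. Of the 3 reference genes AT2G28390 itself fell (log2 difference -0.51, adjusted p = 0.00517), against 0.19 for PEX4 (adjusted p = 0.207) and -0.06 for AT4G34270 (adjusted p = 0.658). Centring moves every probe set by the same amount, so for some of the gene lists below the difference from the median of all probe sets is also given.

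**Figure D1:**
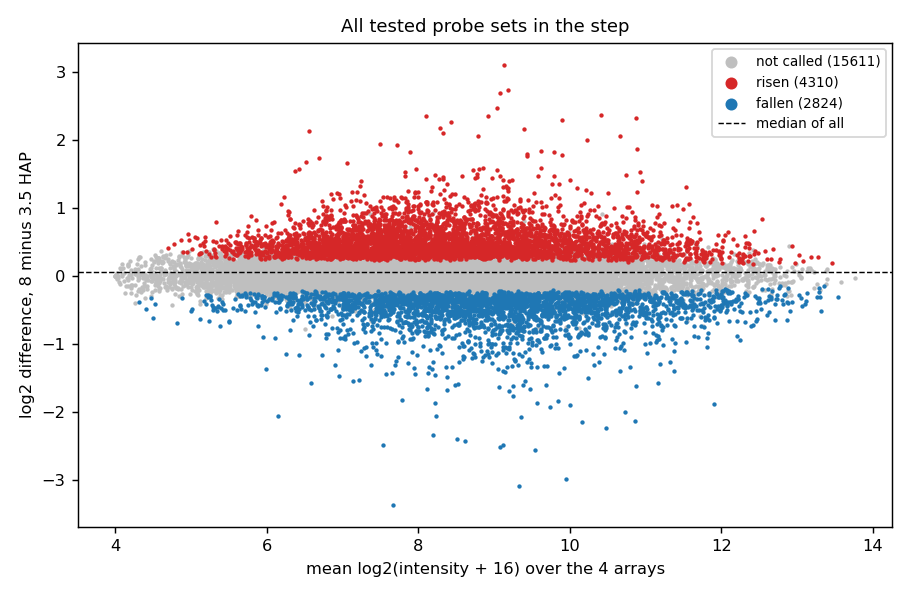
Log2 difference between 8 and 3.5 HAP (y axis) against the mean log2(intensity + 16) of the 4 arrays (x axis), 1 point per probe set, with risen probe sets in red, fallen ones in blue and the median of all as a dashed line. The 4310 rises and 2824 falls lie across most of the range of intensity, and the median lies at 0.051.

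Array medians were 257.0 and 257.1 at 3.5 HAP and 269.6 and 272.2 at 8 HAP, and the SD of the log2 difference between replicates was 0.15 and 0.14. The 3' to 5' log2 ratios of the actin control were 1.93 and 2.15 at 3.5 HAP and 2.11 and 2.18 at 8 HAP, while unpollinated replicate 2 stood apart at 2.96. Other controls had higher 3' to 5' log2 ratios on both 8 HAP arrays than on both 3.5 HAP arrays: the older GAPDH set (2.74 and 2.56 against 2.26 and 2.26), the older actin set (3.57 and 3.66 against 3.43 and 3.46) and ubiquitin (0.61 and 0.58 against 0.48 and 0.52). The part of RNA quality in the results below was not tested. In the step unpollinated replicate 2 enters only the estimate of spread, and 8571 probe sets changed without it. Codes in the labels begin with J for the 0.5 and 3.5 HAP arrays and with K for the 8 HAP and unpollinated arrays, without saying what the letters stand for, so letter and time cannot be told apart in this step. All 4 K arrays lay below all 4 J arrays in 81 of the 177 probe sets that fell at least 2-fold (45.8%, against 5.76% of all tested). They lay above them in 39 of the 206 that rose at least 2-fold (18.9%, against 7.61% of all). Both classes were chosen by a difference between the 8 HAP arrays, which are K, and the 3.5 HAP arrays, which are J. That choice fixes part of these orders, so the shares of all tested are not a like comparison.

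The 15 largest rises among named genes held 4 genes of anthocyanin synthesis. AT5MAT, which adds a malonyl group to anthocyanin, went from 195.2 and 202 to 1179 and 975.1 (log2 difference 2.34, SE 0.11, adjusted p = 5.94e-07). DFR, the reductase at the branch towards anthocyanin, went from 239.1 and 167 to 928.7 and 841.7 (log2 difference 2.06, SE 0.147, adjusted p = 1.16e-05). UF3GT, a glycosyltransferase that adds xylose to anthocyanin, went from 933.4 and 1031 to 3767 and 3449 (log2 difference 1.86, SE 0.099, adjusted p = 1.47e-06). In each of these genes the 8 HAP arrays lay above the 3.5 HAP arrays with a wide gap. The levels of AT4G14090 and AT5MAT in ovules were within the background level (means 72.6 and 62.19), and that of DFR was not (473.8).

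Of the other large rises, ASPGB1, an asparaginase that releases ammonium from asparagine, went from 655.3 and 516.5 to 3047 and 3087 (log2 difference 2.37, SE 0.119, adjusted p = 8.93e-07). HAT2, an auxin-induced homeodomain factor, went from 407.7 and 398.9 to 1541 and 1401 (log2 difference 1.82, SE 0.114, adjusted p = 4.14e-06). AT5G47350, which lies next but 1 to HAT2 in gene order, went from 290 and 148.7 to 1374 and 1085 (log2 difference 2.46, adjusted p = 3.84e-05). None of these 3 genes had overlapping arrays.

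AT4G15750, of the invertase and pectin methylesterase inhibitor family, rose 3.99-fold from replicates that were far apart at 3.5 HAP (852.5 and 399.5) to 2590 and 2186. AT2G38900, of the potato inhibitor I family of protease inhibitors, rose at least 2.31-fold to 371.9 and 303.6 from a mean of 77.95, within the background level. AT5G01870, of the lipid transfer protein family, rose 3.39-fold, from 384.7 and 335.6 to 1499 and 1052. AT1G06830, of the glutaredoxin family, rose at least 2.75-fold to 426 and 410.4, from a mean of 130.8, with 1 of the 2 arrays above the background level. The remaining 4 of the 15, orfX, AT2G07708, AT2G07751 and petG, are of the organelle genomes or near-copies of them and are described with those genomes.

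**Figure D2:**
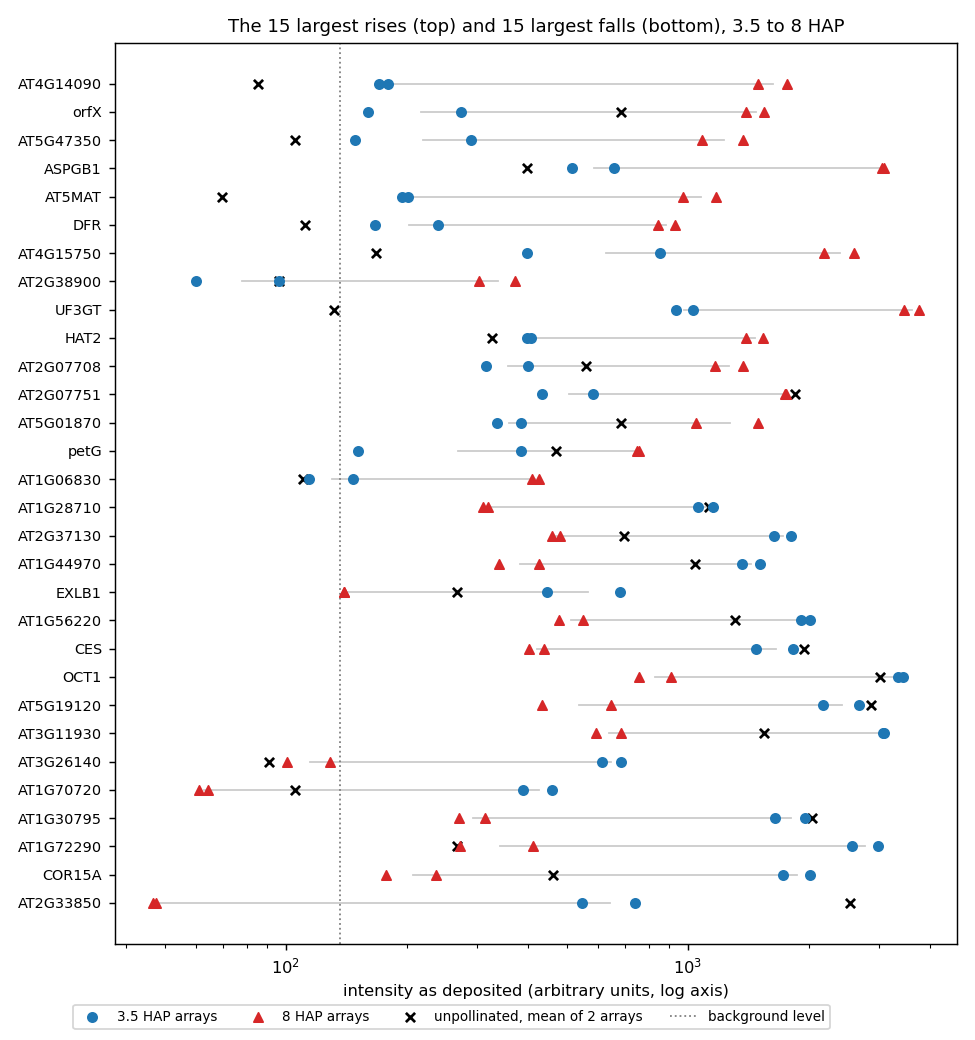
Intensity as deposited (x axis, log scale) of the 15 largest rises and the 15 largest falls between 3.5 and 8 HAP, with each array as a point, the means joined by a grey line, the mean of unpollinated pistils as a cross and the background level of 136.5 as a dotted line. The arrays of 3.5 and 8 HAP do not overlap in any of the 30 genes, as the rule that chose them requires.

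Of the other large falls, AT1G72290, a Kunitz-type protease inhibitor, went from 2971 and 2565 to 411.8 and 271 (log2 difference -2.99, SE 0.199, adjusted p = 7.52e-06). AT1G30795 went from 1960 and 1649 to 313.1 and 270.2 (log2 difference -2.56, SE 0.137, adjusted p = 1.47e-06). AT1G70720, of the invertase and pectin methylesterase inhibitor family, went from 461.1 and 390.4 to 60.83 and 64.24, within the background level, a fall of at least 2.89-fold (adjusted p = 1.37e-07). The same inhibitor family thus gave AT4G15750 among the largest rises and AT1G70720 among the largest falls.

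AT3G26140, of the cellulase family GH5, fell at least 4.34-fold, from 682 and 610.9 to a mean of 114.7, within the background level. AT3G11930, a universal stress protein, fell 4.73-fold, from 3060 and 3088 to 684.8 and 593. AT5G19120, of the aspartyl protease family, fell 4.45-fold, and OCT1, a carnitine transporter, 4.03-fold, from 3437 and 3335 to 756.8 and 907.1. Both are more abundant in ovules than in unpollinated pistils, with log2 differences of 1.03 and 1.17 between those tissues (adjusted p = 0.00039 and 4.27e-06). AT1G56220, of the dormancy and auxin associated family, fell 3.75-fold and was also higher in ovules (log2 difference 0.96, adjusted p = 0.000119).

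Of the class III peroxidases, which oxidise phenolic compounds in the wall, AT1G44970 went from 1510 and 1364 to 427.8 and 338.8 and AT2G37130 from 1643 and 1804 to 480.2 and 460. These are falls of 3.66-fold and 3.58-fold (adjusted p = 4.59e-05 and 0.000125). AT1G28710 fell 3.40-fold, EXLB1, an expansin-like protein, 3.65-fold, and CES, a bHLH factor, 3.80-fold. Each of these 30 genes was also called under every other setting that was checked gene by gene. These were 15 settings for 29 of them and 14 for AT1G06830, which a filter on dim probe sets left out.

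Genes of anthocyanin and flavonoid synthesis were measured under a name in 6 cases, while the list has 34 entries by locus. All 6 rose, where 18.9% of all probe sets rose, with a median log2 difference of 1.60, which is 1.55 above that of all probe sets. Both 8 HAP arrays lay above both 3.5 HAP arrays in all 6, a pattern that 43.2% of all probe sets show. UGT78D2, which adds glucose to anthocyanin and flavonol, went from 570.2 and 494.5 to 1372 and 1371 (log2 difference 1.34, SE 0.098, adjusted p = 1.35e-05). BAN, the anthocyanidin reductase of seed coat tannin synthesis, went from 623 and 513.6 to 1507 and 1413 (log2 difference 1.34, SE 0.134, adjusted p = 7.60e-05). UGT78D1, a flavonol rhamnosyltransferase, rose least, from 2036 and 1831 to 2659 and 2515 (log2 difference 0.42, adjusted p = 0.023). Its call was lost without 3.5 HAP replicate 2 or either 8 HAP array (adjusted p = 0.152, 0.127 and 0.079). The ovule level separates the members: BAN was 8.10-fold higher in ovules than in unpollinated pistils, at a mean of 2682, while UGT78D2 was lower there (log2 difference -1.21, adjusted p = 1.29e-06) and UF3GT lay within the background level in both.

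In all 6 genes 8 HAP had the highest mean of the 4 pistil groups, which holds for 30.2% of all probe sets. The rise of 5 of them between 3.5 and 8 HAP was larger than that between 0.5 and 3.5 HAP, by a test of the difference of both steps (23.1% of all probe sets passed that test, 14.5% in this direction). That difference was 0.63 on the log2 scale for UF3GT (adjusted p = 0.0229). It also passed for AT5MAT (adjusted p = 0.000777) and for AT4G14090 (adjusted p = 2.36e-05), whose name in the tables used is only its locus and which is therefore outside the 6, but their 0.5 HAP levels lay within background, so no size is given. UF3GT had already climbed from a mean of 131.6 in unpollinated pistils to 408.1 at 0.5 HAP.

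The 5 measured genes of the cold, dehydration and abscisic acid list fell, where 12.4% of all probe sets fell. Their median log2 difference was -1.33, or -1.39 relative to that of all probe sets. This list has 38 entries by locus, so most of its genes were not counted. COR15B, a paralogue that neighbours COR15A on the chromosome, went from 2750 and 2882 to 1233 and 992.4 (log2 difference -1.33, SE 0.121, adjusted p = 4.36e-05). COR47, a dehydrin, went from 2016 and 2101 to 861.1 and 833.9 (log2 difference -1.26, SE 0.108, adjusted p = 3.26e-05). LTI30, also a dehydrin, went from 333.9 and 424.8 to 169.4 and 111 (log2 difference -1.36, SE 0.167, adjusted p = 0.000239). In these 3 genes and in COR15A the arrays of both times did not overlap. STZ, a zinc finger repressor of stress responses, fell least (log2 difference -0.44, adjusted p = 0.0246). It did not pass after centring (adjusted p = 0.0691), nor without 3.5 HAP replicate 2 (0.215), 8 HAP replicate 1 (0.1) or 8 HAP replicate 2 (0.11).

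The genes of this list had different histories before the step. COR15A had a mean of 2042 at 0.5 HAP and ended below its unpollinated mean of 462.8. Its late difference lay 2.95 below its early one on the log2 scale (adjusted p = 2.84e-05). COR15B and COR47 fell more in the late step than in the early one as well, by 0.97 and 0.58 on the log2 scale (adjusted p = 0.00803 and 0.0449). LTI30 had its peak at 0.5 HAP, with a mean of 1125, and its 2 steps were not found to differ (difference 0.18, adjusted p = 0.689). All of the list but LTI30 were lower in ovules than in unpollinated pistils, COR47 with a mean of 124.4 against 1693.

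**Figure D3:**
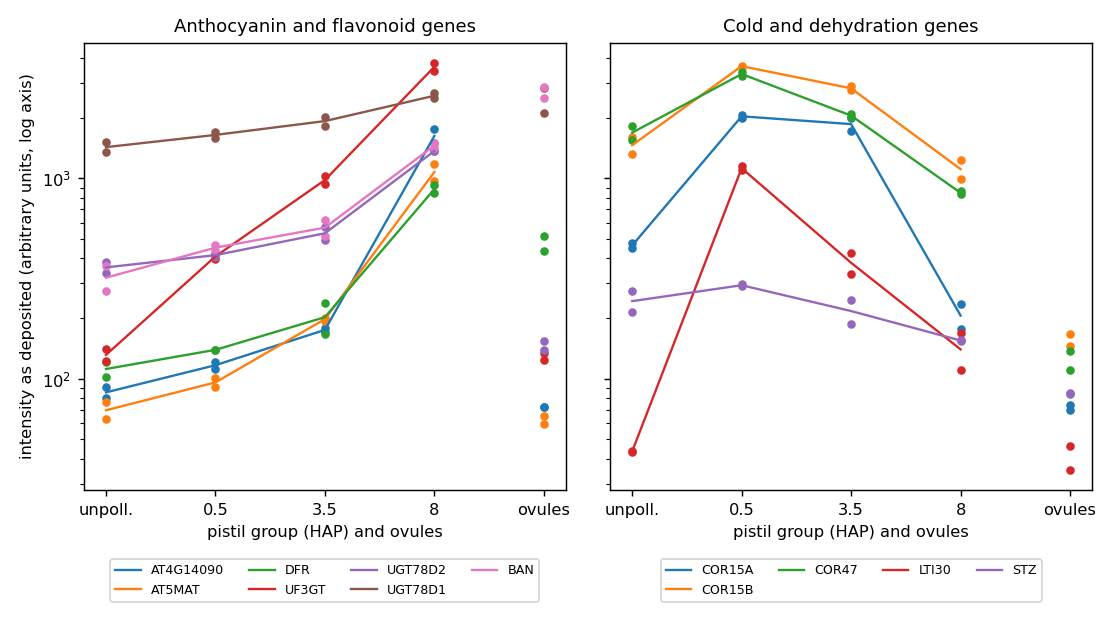
Intensity as deposited (y axis, log scale) of anthocyanin and flavonoid genes (left) and cold and dehydration genes (right) in each pistil group by HAP and in ovules, with each array as a point and lines joining the means of the pistil groups. The anthocyanin genes are highest at 8 HAP among pistils, while COR15A drops from 1723 and 2011 at 3.5 HAP to 236.1 and 177.7 at 8 HAP.

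Nuclear genes of photosynthesis fell and many plastid-encoded genes rose. All 10 measured nuclear genes fell, where 12.4% of all probe sets fell. Their log2 differences lay between -0.28 (PSBW) and -0.74 (LHCB4.2), with a median of -0.40, which is 0.45 below that of all probe sets. LHCB4.2, an antenna protein of photosystem II, went from 3524 and 3389 to 2083 and 2036 (adjusted p = 0.00106), and PRK, the phosphoribulokinase of the Calvin cycle, from 5116 and 4845 to 3138 and 3017 (adjusted p = 0.00132). The arrays of both times did not overlap in any of the 10, a pattern that 29.7% of all probe sets show in this direction. Falls were called for 5 of them with centred arrays and for 8 after quantile normalization. They numbered 6 without 3.5 HAP replicate 1, 8 without 3.5 HAP replicate 2, 6 without 8 HAP replicate 1 and 7 without 8 HAP replicate 2. All 10 were lower in ovules than in unpollinated pistils.

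Of 69 measured genes of the plastid genome 27 rose and 3 fell, where 18.9% of all probe sets rose and 12.4% fell. The 69 genes had a median log2 difference of 0.26, which is 0.21 above that of all probe sets. AtpF, a subunit of the ATP synthase, went from 887 and 1160 to 2545 and 3186 (log2 difference 1.47, SE 0.162, adjusted p = 0.000127). NdhK, a subunit of the NDH complex, went from 145.3 and 219.3 to 500.6 and 530.4 (log2 difference 1.45, adjusted p = 0.000246), and cemA, an envelope protein, from 1154 and 1455 to 2430 and 2554 (log2 difference 0.93, adjusted p = 0.000125). The 3 falls were small: rps18 by 0.46, rpoA by 0.20 and atpE by 0.15 on the log2 scale. By function, 8 of 20 photosystem genes rose, 6 of 15 ribosomal protein genes and 3 of 10 ndh genes, and 39 of the 69 did not pass.

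In time, more plastid genes had their lowest level at 3.5 HAP than their highest at 8 HAP. The mean at 3.5 HAP was the lowest of the 4 pistil groups in 28 of the 69 (32.2% of all probe sets). That at 8 HAP was the highest in 4 (30.2% of all probe sets) and the lowest in 20 (25.3%). AtpF had means of 2190 in unpollinated pistils and 3051 at 0.5 HAP. In 32 of the 69 the late step lay above the early one (14.5% of all probe sets) and in 2 below. Replicate 1 at 3.5 HAP was below replicate 2 in 55 of the 69 genes, as for rpl20 (294.9 and 663) and rps15 (447.2 and 839.6). The count of rises was 15 without 3.5 HAP replicate 1, 33 without 3.5 HAP replicate 2, 22 without 8 HAP replicate 1 and 14 without 8 HAP replicate 2. Falls numbered 6 without 3.5 HAP replicate 1 and 1 without any of the others. The part of the low replicate in these counts was not tested.

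PetG, a small subunit of the cytochrome b6f complex, shows the replicate gap at its widest among the 15 largest rises, at 151.8 and 385.5 against 758.4 and 747.9 (log2 difference 1.57, SE 0.34, adjusted p = 0.00561). The mitochondrial reading frame orfX went from 160 and 273.3 to 1400 and 1552 (log2 difference 2.72, SE 0.265, adjusted p = 6.60e-05). AT2G07708 went from 315.9 and 400.8 to 1370 and 1169, and AT2G07751 from 433.6 and 581.1 to 1753 and 1745. Their loci lie in the part of chromosome 2 that carries a copy of the mitochondrial genome, so their probe sets may read either copy. All of these genes were lower at 3.5 HAP than at any other pistil time, and the arrays at 3.5 and 8 HAP did not overlap.

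Among 11 measured mitochondrial genes 4 rose, nad9, cox2, nad4 and nad4L, and nad2 fell within the background level. The reading frame orfX, described above, is not among these 11, so the counts here leave out its larger rise. Over all probe sets 18.9% rose and 12.4% fell. Nad9, of respiratory complex I, went from 159 and 173.2 to 321.4 and 314.7 (log2 difference 0.88, adjusted p = 0.00822), under its unpollinated mean of 1925. Nad4L lay within the background level at both times. The number of rises was 2 after quantile normalization, 0 without 3.5 HAP replicate 1 or without 8 HAP replicate 1, and 2 without either of the other arrays.

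Of 48 measured genes that loosen and rebuild cell walls 20 rose and 5 fell, where 18.9% of all probe sets rose, 12.4% fell and rises made up 60.4% of the changes. The 48 genes had a median log2 difference of 0.27, which is 0.22 above that of all probe sets. With centred arrays 30 rose and 3 fell, and leaving out an array of the step left 13 to 16 rises and 2 to 4 falls. Xyloglucan enzymes had 5 rises in 10 genes and no fall, GH9 glucanases 7 rises and 1 fall in 15, and expansins 7 rises and 2 falls in 19.

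EXPA4, an expansin, went from 259.1 and 308.7 to 497.4 and 512.4 (log2 difference 0.80, SE 0.104, adjusted p = 0.000324). PME61, a pectin methylesterase, went from 222.2 and 226.3 to 405.9 and 463.5 (log2 difference 0.90, SE 0.093, adjusted p = 8.92e-05). GH9A3, a glucanase, went from 323.6 and 303.3 to 611.5 and 583.8 (log2 difference 0.90, adjusted p = 0.000141), and it was higher in ovules (mean 1136) than in unpollinated pistils (357.1). GH9B11 (log2 difference 0.68) and EXPB5 (0.71) rose as well, and in all 5 genes the arrays did not overlap. EXPB5 and GH9B11 were within the background level in ovules, with means of 59.57 and 129.7.

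In the other direction ATPMEPCRB, a pectin methylesterase, fell from 1463 and 1467 to 913.3 and 905.3 (log2 difference -0.68, adjusted p = 0.00216) and the expansin EXPA8 from 533.6 and 478.8 to 386.8 and 327.7 (log2 difference -0.49, adjusted p = 0.00444). EXLB1, described above, had the largest fall of the list. Of 9 genes listed under cellulose and callose synthesis 3 rose and 0 fell, with a median of 0.25. Over all probe sets 18.9% rose and 12.4% fell. All 3 are CSLA or CSLC genes, so no rise of a cellulose or callose synthase was found. CSLA01, a mannan synthase, went from 693.1 and 633.7 to 1089 and 1159 (log2 difference 0.75, adjusted p = 0.000188), CSLA03 rose at least 1.06-fold from within the background level (adjusted p = 0.00278), and ATCSLC08 rose by 0.35 on the log2 scale. ATCSLC08 did not pass without 3.5 HAP replicate 2 (adjusted p = 0.124) or either 8 HAP array (0.0821 and 0.0809).

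Some pollen genes were higher at 8 HAP, and some genes of the transmitting tract and style were lower. Of 7 measured pollen and pollen tube genes 4 rose and 0 fell (median log2 difference 0.38), where 18.9% of all probe sets rose and 12.4% fell. ANX2, a receptor kinase that keeps the pollen tube intact, went from 325.1 and 361.8 to 494.1 and 478.2 (log2 difference 0.48, adjusted p = 0.0132), and AT59, a pollen pectate lyase, from 326.9 and 468.2 to 534.1 and 539.9 (log2 difference 0.44, adjusted p = 0.0291). ANX1, a relative of ANX2, rose at least 1.12-fold from within the background level (adjusted p = 0.0093). ACT11, an actin of reproductive organs, had the largest rise, from 479.7 and 456.8 to 1152 and 1056 (log2 difference 1.21, adjusted p = 0.000541), but its unpollinated mean was 967.5, so it is not limited to pollen here.

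TUA1, a pollen tubulin, had overlapping arrays (838.1 and 978, then 850.9 and 934.5; log2 difference -0.02, adjusted p = 0.899), and MGH3 and ACT12 stayed within the background level. The count of pollen genes risen was 1 without 3.5 HAP replicate 1, 1 without 8 HAP replicate 1 and 1 without 8 HAP replicate 2. ACT11 was the gene that remained. Of the receptor kinases known to this list by locus, AT4G39110 rose (log2 difference 0.55, adjusted p = 0.00411), AT5G45840 rose (0.33, adjusted p = 0.0102) and AT2G21480, within the background level, did not pass (adjusted p = 0.0605). AT5G45840 missed the threshold after quantile normalization (0.0566) and without 3.5 HAP replicate 1 (0.0572) or either 8 HAP array (0.0593 and 0.0607). The summed level of 11 pollen markers, ACT11 among them, ran from 3418 to 3881 at 3.5 HAP and from 4673 to 4776 at 8 HAP, against 1696 to 2043 in unpollinated pistils, and 4 and 3 of the 11 lay within the background level at 3.5 and 8 HAP. Without ACT11 the sum of the other 10 ran from 2938 to 3424 at 3.5 HAP and from 3616 to 3624 at 8 HAP, against 895.6 to 909 in unpollinated pistils.

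Of 10 measured stigma, style and transmitting tract genes 3 fell and 0 rose, with a median of -0.01. Over all probe sets 12.4% fell and 18.9% rose. CES, which acts in the transmitting tract, went from 1834 and 1476 to 404.2 and 440.1 (log2 difference -1.92, SE 0.104, adjusted p = 1.47e-06). ARPN, a plantacyanin of the transmitting tract, went from 5509 and 4852 to 2392 and 2578 (log2 difference -1.05, adjusted p = 0.0002), still above its unpollinated mean of 1247. SHI, a factor of style development, fell by 0.34 on the log2 scale (adjusted p = 0.0133), and it did not pass after centring (0.0869), without 3.5 HAP replicate 2 (0.118) or without 8 HAP replicate 2 (0.102). SPT and NGA1, factors of carpel margin and style, had overlapping arrays and log2 differences of -0.02 and -0.03. The S-locus-related gene AT3G12000 fell to 17.81 and 19.71 from 146.6 and 113.5, a mean already within the background level. The summed level of 11 such markers was 8415 to 9525 at 3.5 HAP and 4852 to 4994 at 8 HAP, with ARPN as its brightest member.

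**Figure D4:**
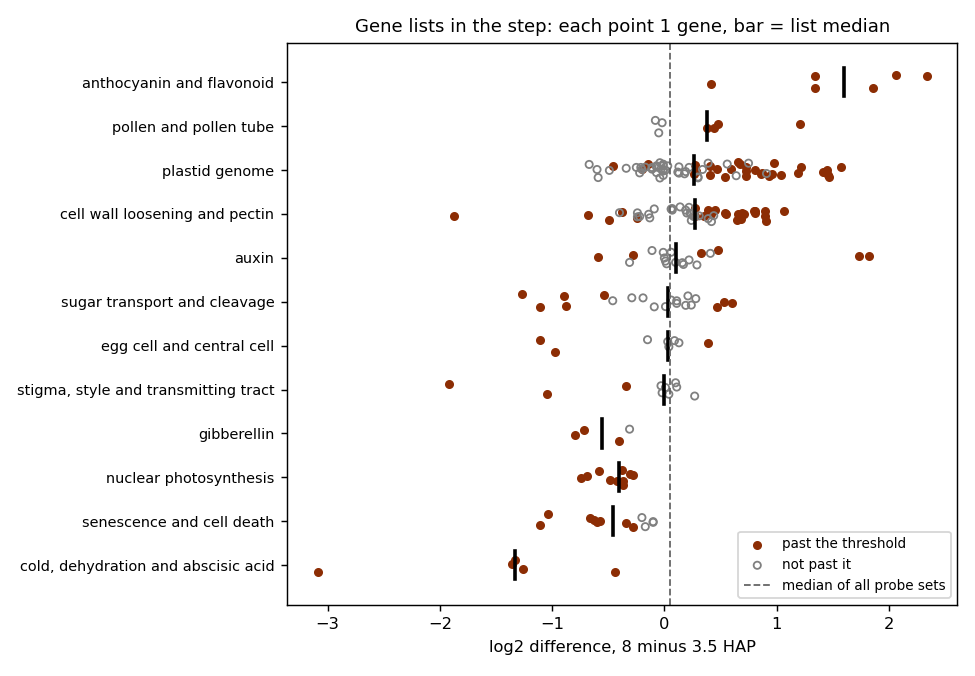
Log2 difference between 8 and 3.5 HAP (x axis) of each measured gene (points, filled where past the threshold) in 12 gene lists (y axis), with the list median as a bar and the median of all probe sets as a dashed line. The anthocyanin genes lie between 0.42 and 2.34 and the cold genes between -3.09 and -0.44, while the plastid genes spread from -0.67 to 1.57.

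Of 8 measured egg cell and central cell genes 2 fell and 1 rose, where 12.4% of all probe sets fell and 18.9% rose. The 2 falls were of the EC1 family of the egg cell, whose products are secreted when sperm arrive. EC1.2 went from 233.3 and 182.3 to 94.57 and 80.44, within the background level, a fall of at least 1.46-fold (adjusted p = 0.000141), and EC1.5 from 291.7 and 304.5 to 134 and 155.7 (log2 difference -0.97, SE 0.101, adjusted p = 9.76e-05). Both fell under every setting that was checked gene by gene, and both were higher in ovules than in unpollinated pistils (means 882.9 and 921). Both also fell more in the late than in the early step (adjusted p = 0.00097 and 0.00569), EC1.5 by 0.86 on the log2 scale. Of the 8 measured egg cell and central cell genes only AGL62, an endosperm factor, rose, within the background level (adjusted p = 0.0227), and it did not pass after quantile normalization (adjusted p = 0.058) or without 3.5 HAP replicate 1 (0.0545), 3.5 HAP replicate 2 (0.127) or 8 HAP replicate 1 (0.208). FER, the receptor kinase of synergid cells that is also made elsewhere, had a log2 difference of 0.03 and DME, the central cell demethylase, of 0.09. INO, of the outer integument, had overlapping arrays (log2 difference -0.04, adjusted p = 0.772). The summed level of 9 egg cell and central cell markers was 3232 to 3288 at 3.5 HAP and 3012 to 3084 at 8 HAP. That of 2 integument markers was 562.1 to 597.6 and 547.2 to 603.2, with 1 of the 2 within the background level at both times. BAN, of the seed coat, was counted with the anthocyanin genes and not in this sum, and it rose (log2 difference 1.34). The 2 measured anther and petal markers, AMS and SPL, stayed within the background level at both times and did not pass, while AT5G07230, known to that list by locus, rose within it (adjusted p = 0.0346). It did not pass after quantile normalization (0.0787), nor without 3.5 HAP replicate 2 (0.217) or either 8 HAP array (0.0542 and 0.227). AMS passed after centring (0.0462). The summed level of the 3 anther markers was 289.2 on both 3.5 HAP arrays and 325.3 to 348.9 at 8 HAP.

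The difference between ovules and unpollinated pistils uses no array of the step, and 51.6% of all probe sets passed that contrast. Its adjusted p rests on the spread of each probe set over all 5 groups, as that of the step does. Probe sets with a small spread pass both more readily, so the shares passing below are not independent of the step. Of the 177 probe sets that fell at least 2-fold, 108 (61.0%) were lower in ovules than in unpollinated pistils, against 22.0% of all probe sets, and 44 (24.9%) were higher, against 29.6%. Their median log2 difference between ovules and unpollinated pistils was -0.78, against 0.038 for all. Of the 206 that rose at least 2-fold, 67 (32.5%) were higher in ovules and 55 (26.7%) lower. Without unpollinated replicate 2 the falls gave 107 lower (60.5%, against 19.5% of all) and 44 higher, and the rises 72 higher (30.1% of all) and 49 lower.

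A smaller set of falls ran the other way. Of the 96 named falls of at least 2-fold, 19 were at least 2-fold higher in ovules (19.8%, against 3.12% of all probe sets naming 1 gene) and 43 at least 2-fold lower (44.8%, against 5.72%). AT5G45910, of the GDSL lipase family, went from 921.4 and 894.9 to 308.9 and 350.3 (log2 difference -1.42, adjusted p = 2.68e-06), with 3014 and 3033 in ovules. AT5G22970 went from 637 and 603.4 to 194.1 and 196.4 (log2 difference -1.59, adjusted p = 1.47e-06), with 2069 and 2285 in ovules. AT1G31450, of the aspartyl protease family, went from 524.5 and 560.4 to 244.5 and 267.4 (log2 difference -1.04, adjusted p = 3.42e-05), with 2736 and 2673 in ovules. These 3 were chosen, with their values seen, from the 6 that are highest in ovules, and none of them had overlapping arrays. Among the 98 named rises 21 were at least 2-fold higher in ovules (21.4%), such as BAN, AT4G15750 and AT5G01870, and 16 at least 2-fold lower (16.3%).

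**Figure D5:**
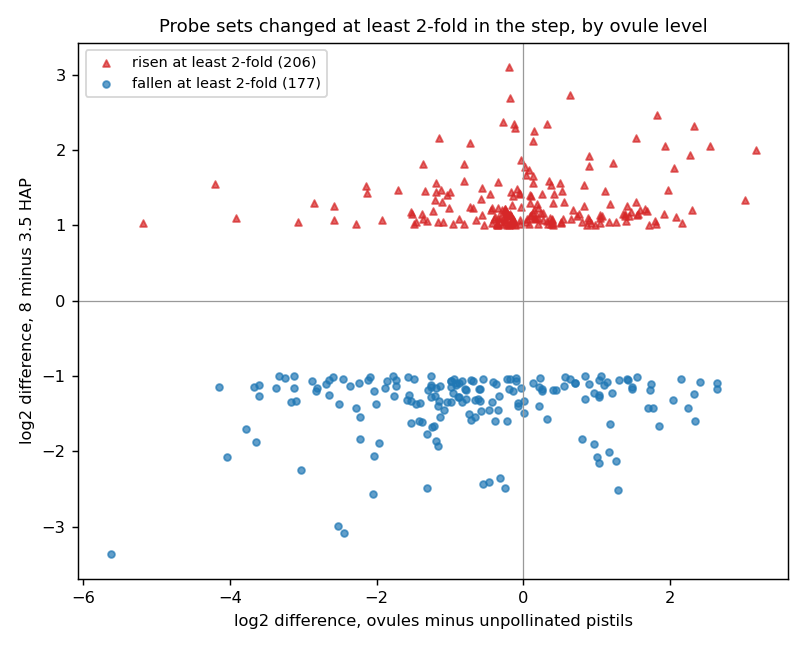
Log2 difference between 8 and 3.5 HAP (y axis) against that between ovules and unpollinated pistils (x axis) for the 206 probe sets that rose and the 177 that fell at least 2-fold, 1 point each. The falls lie mostly left of 0 (108 lower in ovules and 44 higher), and the rises lie on both sides.

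The contrast of 0.5 HAP with unpollinated pistils, in which 30.2% of all probe sets passed, takes its difference from no array of the step either. It shares its unpollinated arrays with the ovule contrast and its estimate of spread with the step. Of the 206 rises 85 (41.3%) and of the 177 falls 73 (41.2%) were higher at 0.5 HAP than in unpollinated pistils, against 15.5% of all. Without unpollinated replicate 2 these shares were 44.2% and 36.7%, against 14.8%. The 8 HAP mean was the highest of the 4 pistil groups in 174 of the 206 rises (84.5%, against 30.2% of all), and 3.5 HAP was the lowest in 93. It was the lowest in 141 of the 177 falls (79.7%, against 25.3%), and 3.5 HAP was the highest in 92. These orders are fixed in part by how the classes were chosen.

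Of 12 measured genes of autophagy and senescence 8 fell and 0 rose, where 12.4% of all probe sets fell. Of the 12, 11 are autophagy genes, of which 7 fell, and the other is SAG29. The 12 had a median log2 difference of -0.45, and their arrays were all lower at 8 HAP without overlap (29.7% of all probe sets). ATG8E, one of the ubiquitin-like proteins that coat the autophagosome, went from 1141 and 1280 to 586.4 and 574.7 (log2 difference -1.04, SE 0.139, adjusted p = 0.000393). ATG8H went from 793.2 and 794.8 to 511.9 and 482.5 (log2 difference -0.66, SE 0.082, adjusted p = 0.000264). APG8A fell by 0.63 on the log2 scale, ATG8B by 0.60, ATG8C by 0.57, ATG8F by 0.34 and ATG8G by 0.28, while ATG8D, APG8H, ATG3 and AT5G66930 did not pass. With centred arrays 6 of the 12 fell. SAG29, a SWEET transporter of senescing leaves, went from 642.1 and 736.2 to 273.9 and 353 (log2 difference -1.11, adjusted p = 0.00096).

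SAG29 is 1 of 5 sugar transporters that fell among 20 genes of sugar transport and cleavage, of which 3 rose. Over all probe sets 12.4% fell and 18.9% rose. SWEET11, which exports sucrose to the phloem and the seed, went from 541.7 and 578.1 to 220.3 and 225.1 (log2 difference -1.27, SE 0.106, adjusted p = 3.00e-05). SWEET1, a glucose exporter, went from 2993 and 3212 to 1616 and 1741 (log2 difference -0.88, adjusted p = 0.00187), and SWEET3 from 383.9 and 324.7 to 183.6 and 183.8 (log2 difference -0.89, adjusted p = 0.000314). SWEET17, a fructose transporter of the vacuole, rose from 994.8 and 902.1 to 1312 and 1589 (log2 difference 0.60, adjusted p = 0.0018), as did SWEET7 (0.47) and cwINV6, the last within the background level. The list as a whole had a median of 0.03, close to that of all probe sets.

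The gibberellin receptors GID1A, GID1B and GID1C fell, and SLY1, the F-box protein that acts with them, did not pass (log2 difference -0.31, adjusted p = 0.101). Over all probe sets 12.4% fell. GID1A went from 662.8 and 761.7 to 413.6 and 434.3 (log2 difference -0.72, adjusted p = 0.000302), and GID1B from 273 and 322.4 to 158.9 and 168.2 (log2 difference -0.80, adjusted p = 0.00147). GID1C fell at least 1.11-fold, to within the background level (adjusted p = 0.00523). The 3 receptor falls were called in each setting in which they were counted.

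Of 19 auxin genes 4 rose and 2 fell, where 18.9% of all probe sets rose and 12.4% fell. Besides HAT2, IAA31, of the Aux/IAA repressors, rose at least 1.23-fold, from 36.73 and 44.54 to 166 and 177.5 (adjusted p = 6.60e-05), and its other pistil means and its ovule mean lay within the background level. IAA20 and IAA34 rose within the background level, and calls of both depend on single arrays: IAA20 did not pass without 8 HAP replicate 1 (adjusted p = 0.0512), nor IAA34 without 3.5 HAP replicate 1 (0.0966), 3.5 HAP replicate 2 (0.0586) or 8 HAP replicate 2 (0.158). GH3.9, of the family that conjugates auxin, fell within that level and did not pass without 3.5 HAP replicate 1 (0.0696) or 8 HAP replicate 1 (0.0783). YUC6, an enzyme of auxin synthesis, fell by 0.28 on the log2 scale, a call lost with centred arrays (adjusted p = 0.25) and on leaving out any of the 4 arrays (0.0629 to 0.21). Of the remaining hormone genes OPCL1, of jasmonate synthesis, rose (log2 difference 0.49, adjusted p = 0.0408) and was lost on leaving out any of the 4 arrays (0.12 to 0.174). JMT, which methylates jasmonate, had overlapping arrays. RTE1, of ethylene perception, fell by 0.29, a call lost with centred arrays (0.195) and on leaving out any of the 4 arrays (0.0547 to 0.177), and EIN3, an ethylene response factor, did not pass (-0.16).

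Among the genes of defence, wounding and heat, rises and falls were mixed. The counts below stand against 18.9% risen and 12.4% fallen over all probe sets. Of 15 defence genes the cysteine-rich peptide genes LCR24 and LCR59 rose and LCR69 and LCR80 fell. LCR24 went from 189 and 165.9 to 388.5 and 379.7 (log2 difference 1.05, SE 0.088, adjusted p = 2.90e-05), and LCR69, a highly abundant member, from 8633 and 8693 to 7081 and 6091 (log2 difference -0.40, adjusted p = 0.00201). LCR80 did not pass with centred arrays (0.102) or on leaving out any of the 4 arrays (0.0883 to 0.211). Of 16 touch, wound and pattern-triggered genes 2 rose, CML41 and AT1G76640, and 4 fell, among them WRKY6 (log2 difference -0.44, adjusted p = 0.00429). CML41 did not pass without 3.5 HAP replicate 2 (0.0677) or 8 HAP replicate 2 (0.0875), nor WRKY6 without the latter (0.054). The falls numbered 2 with centred arrays and 7 after quantile normalization, and 1 to 3 on leaving out an array. Of 4 heat shock and chaperone genes Hsp70-2, a cytosolic chaperone, rose from 2061 and 2140 to 4206 and 4519 (log2 difference 1.05, SE 0.114, adjusted p = 0.000123). ATHSP22.0, a small heat shock protein, was called on unequal 8 HAP arrays, 75.87 and 246.1, and it did not pass without that replicate 2 (adjusted p = 0.218) or either 3.5 HAP array (0.142 and 0.102).

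The families of metabolic enzymes were likewise divided, and their counts stand against 18.9% risen and 12.4% fallen over all probe sets. Of 51 UGT glycosyltransferases 11 rose and 9 fell (median log2 difference -0.05), while 4 fell with centred arrays and 15 after quantile normalization. Leaving out an array gave 4 to 7 rises and 4 to 8 falls. The largest changes were the anthocyanin enzymes above, UGT84A1 upwards (log2 difference 1.25, adjusted p = 1.36e-05) and UGT76E12 downwards (-0.90, adjusted p = 0.000324). Of 22 cytochromes P450 2 rose and 5 fell, and falls numbered 1 or 2 on leaving out an array. CYP71B6 had the largest log2 difference (-1.34, adjusted p = 0.0313), which did not pass on leaving out any of the 4 arrays (0.081 to 0.154). CYP78A9, of the family that acts on seed and fruit size, rose at least 1.62-fold, from 142.4 and 124.9, a mean within the background level, to 247 and 223.6 (adjusted p = 0.000453). Of 14 glutathione transferases 1 rose, GSTU20 (log2 difference 0.92, adjusted p = 0.000295), and 3 fell, led by GSTU16 (-0.87, adjusted p = 0.000182). Of the 7 class III peroxidases in the list AT2G41480 rose (0.65, adjusted p = 0.00155) and 3 fell, led by PRX52 (-0.92, adjusted p = 0.000161). With centred arrays 3 rose and 1 fell, and on leaving out any of the 4 arrays 1 rose and 1 fell.

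In glucosinolate synthesis BCAT4, which starts the elongation of methionine, rose from 454.3 and 536.6 to 869.4 and 1206 (log2 difference 1.03, adjusted p = 0.00128), to well under its unpollinated mean of 3993. UGT74B1, which glucosylates the thiohydroximate, rose (0.50, adjusted p = 0.0017), and GTR1, a transporter, did not pass (-0.18, adjusted p = 0.333). Among 5 genes of darkness, sugar starvation and nitrogen ASPGB1 rose while AKINBETA1, a subunit of the SnRK1 kinase, and MCCA, of leucine breakdown, fell (-0.82 and -0.71, adjusted p = 0.0019 and 0.00559). MCCA did not pass without 3.5 HAP replicate 2 (0.0581) or 8 HAP replicate 1 (0.0508). IVD, also of leucine breakdown, had a log2 difference of -0.39 (adjusted p = 0.065). The replication gene PRL, a subunit of the MCM helicase, rose from 506.1 and 505.6 to 1058 and 908.5 (0.93, adjusted p = 9.76e-05). The clock gene GI fell from 1091 and 1102 to 582.3 and 602.1 (-0.87, adjusted p = 4.46e-05); the clock time of collection is not given in the sources used here. The NAC factor NAC014 had overlapping arrays.

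The late step differed from the early one in 5262 probe sets, above it in 3308 (14.5%) and below it in 1954 (8.59%). Both steps share the 3.5 HAP arrays, so a value that is off at 3.5 HAP moves them in opposite directions. The steps also differ in length, so a larger difference is not a faster change. Neighbouring genes changed together in some cases: besides COR15A with COR15B and AT5G47350 with HAT2, AT3G57840 and AT3G57850 both fell (the first by 1.01 on the log2 scale, the second at least 2.13-fold, to within the background level), and AT2G07707 rose beside AT2G07708 (1.17 and 1.78).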

How the data were processed

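Per the labels' protocols, total RNA was amplified in successive rounds to biotin-labelled cRNA, and 1 sample was hybridised to each Affymetrix array. The values are linear intensity as deposited by the authors, for 22810 probe sets on 10 arrays. The submitters' processing notes name MAS5, without a version, and the method of scaling is not given in the sources used here. Replicates are separate pools of pistils or ovules, per the labels, and the number of arrays limits the precision.

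The 64 control probe sets and 1 without values were left out. Values were used as log2(value + 16), with no filter on dim probe sets. All 5 groups entered a single linear model without a replicate block in limma 3.58.1 (R 4.3.3), and its variances were moderated by eBayes along the mean intensity, with 5 residual and 6.106 prior degrees of freedom. The contrasts were 8 minus 3.5 HAP, that difference minus the one from 0.5 to 3.5 HAP, ovules minus unpollinated pistils, and 0.5 HAP minus unpollinated pistils. Log2 differences keep the scale of the deposited intensities. The fit was tested on simulated data for the step from 3.5 to 8 HAP over 22745 probe sets: changes of 0.5 on the log2 scale were recovered in 77.8% of 63 probe sets, changes of 1 in 100% of 79 and of 2 in 100% of 58, with 14 unchanged probe sets called.

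The background level, 136.5, is the 95th percentile of the values of 27 control probe sets for Bacillus RNA on all arrays. Probe sets were named through the platform annotation and a gene table of assembly TAIR10.1: 13512 name 1 gene, 503 several and 8730 none here, and 13435 of the first kind matched the table. No coordinates or sequences were used. Named genes are the 15 largest rises and 15 largest falls among probe sets that name 1 gene, pass the threshold, have arrays of both times apart and reach a mean over 262.2, the middle of all deposited values, in the brighter group. To these come up to 6 members of each of 31 gene lists by adjusted p, all members of lists of up to 8 genes and of the anthocyanin, pollen, stigma and cold lists. Other members, genes known only by locus and the ovule-high genes were named after their values were seen. A list counts a gene only where the table pairs its locus with its symbol, and a gene with several probe sets is represented by the brightest. Lists share some genes, and 4 further lists had no such gene. Some lists were counted only in small part: 7 genes against 46 entries by locus for pollen, 1 against 22 for the clock, 2 against 16 for ethylene and 2 against 22 for jasmonate. The members, lists and rules were chosen with earlier results of these data known. The numbers of the replicates were checked as pairs: deviations of same-numbered arrays correlated at r between -0.323 and 0.105 over probe sets. The value of -0.323 was that of ovules with unpollinated pistils. With 2 arrays per group this check cannot settle whether samples share a preparation. Alternatives were another pseudocount, normalization, centring, filter, choice of groups, prior, the replicate block and leaving out each array. Python 3.11.15, pandas 2.3.3, numpy 2.4.6 and matplotlib 3.10.9 were used for tables and figures.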

Additional observations from a re-analysis of the deposited data

Results flagged for a closer look

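In 6 of the 30 genes with the largest changes the early step, from 0.5 to 3.5 HAP, was also called and ran in the opposite direction, and the test of the difference between both steps passed. The difference of the late minus the early log2 difference was 5.23 for orfX (adjusted p = 8.89e-05), 3.58 for AT2G07708 (adjusted p = 7.00e-05), 3.44 for AT2G07751 (adjusted p = 2.84e-05) and 3.28 for petG (adjusted p = 0.00306), all of which were lowest at 3.5 HAP. It was -3.0 for AT3G11930 (adjusted p = 1.38e-05) and -2.73 for EXLB1 (adjusted p = 0.00056), both highest at 3.5 HAP. Each pair of steps shares the 2 arrays at 3.5 HAP, where the replicates of orfX read 160 and 273.3, those of petG 151.8 and 385.5 and those of EXLB1 447.8 and 680.5. The part of these arrays in the result was not tested.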

How the results depend on the processing

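The totals kept within 1.5 times under most alternatives. With arrays centred on the reference genes 7483 probe sets rose and 1485 fell, 338 rose at least 2-fold, and with a pseudocount of 64 rises of at least 2-fold numbered 111; that centring adds a constant to every log2 difference, and 1 of its 3 genes fell itself. Leaving out 1 of the 4 arrays gave 3563 to 4299 changed probe sets (3563 without 8 HAP replicate 2), 2191 to 2615 risen and 1372 to 1699 fallen, with a lone array in 1 group, which is assumed to vary like the others. The test of late against early step called 5262, and 1986 to 3773 without 1 of its 6 arrays (1986 without 3.5 HAP replicate 2, 2087 without 3.5 HAP replicate 1, 3205 without 0.5 HAP replicate 1 and 3335 without 8 HAP replicate 2). With the replicate number as a block, 6595 changed (3997 up, 2598 down) and 4744 passed the late against early test. Whether the numbers pair the samples was not settled. Without unpollinated replicate 2 the counts were 8571 changed, 5182 risen, 3389 fallen and 6749 for late against early. With only the 2 groups in the fit 9379 changed. Of 139 named genes called, 106 were called under every alternative that was checked gene by gene (14 or 15, since a filter on dim probe sets left some out), and no named gene reversed. Fits without unpollinated replicate 2, with a block in the late against early test, and without each 0.5 HAP array were chosen after seeing the data. The search of promoters for motifs was not run, since no promoter sequence was used here. Values up to 136.5 cannot be told from background, so changes to, from or between such values have no exact size, and the ranks, counts and list medians that hold such genes rest on fitted values.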

Other observations

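Some further named genes changed at least 2-fold in the step by their fitted values, picked after their values were seen. CHIL, a chalcone isomerase-like protein that aids flavonoid synthesis, rose from a mean of 936.6 to 2193 (log2 difference 1.22, adjusted p = 0.000296) and was higher in ovules than in unpollinated pistils by 1.66 on the log2 scale. RALFL18, of the RALF family of small signalling peptides, rose from 213.9 to 512.6 (1.2, adjusted p = 2.77e-05), with means of 89.93 in unpollinated pistils and 508.1 in ovules. VDD, a factor needed in the embryo sac, rose from 252.4 to 528.3 (1.02, adjusted p = 0.000811) and was also higher in ovules (mean 1131). SKU5, a wall-bound protein of directional growth, rose from 335.8 to 769.4 (1.16, adjusted p = 3.34e-05).

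COR27, a cold and clock regulated gene, fell from 1262 to 492.4 (-1.33, adjusted p = 2.62e-05) and HIS1-3, a linker histone known from drought, at least 1.04-fold, from 142.3 to 54.64, within the background level (adjusted p = 0.000169). HIS1-3 was higher in ovules than in unpollinated pistils (means 473.8 and 159.8). ChiC, a chitinase, fell from 1157 to 521.8 (-1.12, adjusted p = 4.88e-05) and was within the background level in ovules (mean 80.01).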
